A study of Mus musculus with 38 samples.

Results

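The 7 genes described here were chosen by their counts in the panobinostat experiment, either for large differences between panobinostat and DMSO or for differences that ran in opposite directions in the 2 cell types. They are Slc39a8, Cd36, Atp2b4, Dhrs3, Lmtk3, Ighm and Tnfsf13b, 7 of the 55487 genes in the count tables, and each was matched by its Ensembl identifier. The choice had no stated threshold. Because those values chose the genes, their differences there are given as a description with no test. Tests are given for hypoxia, co-culture and cell type in the libraries of a separate co-culture experiment.

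Panobinostat inhibits histone deacetylases (HDACs), enzymes that remove acetyl groups from histones and other proteins. Blocking them raises histone acetylation, and the transcription of many genes is known to go up or down in response. Microglia and macrophages are myeloid cells that gather in gliomas, where oxygen is often scarce, and they take up lipids and metals, present antigen and release cytokines.

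The series holds 38 mouse RNA-seq libraries in 18 groups. In the panobinostat experiment, the microglial line BV2 and wild-type bone marrow-derived macrophages (BMDM, primary cells) were kept for 16 h with DMSO at 21% oxygen (normoxia), with DMSO below 0.1% oxygen (hypoxia), or with 10 nM panobinostat in hypoxia, with 2 libraries per group. No group had panobinostat in normoxia, and BV2 medium held 2% serum where BMDM medium held 10%. In the co-culture experiment, BV2, BMDM and the glioma line GL261, which stably expressed the plasmid pEGFP-N1, were grown alone or together for 16 h at the same oxygen levels, with 2 GL261 cells seeded per BV2 cell or 1 per BMDM. Groups had 2 libraries there, except the BMDM co-cultures with 3. The BMDM counts were deposited apart from those of BV2 and GL261. Whether these cells were handled together is not given in the sources used here, and they are called 1 experiment for short. Differences between BMDM and the 2 lines, and GL261 shares in BMDM libraries, may therefore hold a batch difference. BV2 and GL261 are single lines, and the age, sex and number of the mice behind the BMDM are not given in the sources used here. How co-cultured cells were separated before RNA isolation is not given in the sources used here.

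Libraries held 9634700 to 15869246 counts in the panobinostat experiment and 9909367 to 27238933 in the co-culture experiment. Levels are CPM, counts relative to the library total, after scaling by the trimmed mean of M values (TMM), computed separately for BV2, GL261 and BMDM and for each experiment, so levels set across cell types or experiments are approximate. A library with 0 counts allows up to 3 counts, or 0.110 to 0.311 CPM, and such limits cover counting error only.

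The labelled cell types were compared with marker genes before the members were described. All 10 macrophage and microglia markers on the list had counts in BMDM. The BMDM libraries of the panobinostat experiment also held high levels of the fibroblast markers Col1a1, Col1a2 and Pdgfrb. Dcn, the other fibroblast marker on the list, was not high there, at 0.693 to 5.02 CPM (unscaled). It reached 18.0 CPM in BMDM of the co-culture experiment. The summed level of the 4 fibroblast markers, most of it Col1a1 and Col1a2, was 19747 and 19357 CPM (unscaled) in the DMSO normoxia libraries. It was 2577 and 13317 CPM in DMSO hypoxia and 8594 and 14052 CPM with panobinostat. In the 10 BMDM libraries of the co-culture experiment it was 60.6 to 546 CPM. The summed macrophage and microglia markers were 6965 and 4876 CPM in DMSO normoxia, 1755 and 3133 CPM in DMSO hypoxia and 524 and 1532 CPM with panobinostat, against 3406 to 6937 CPM in the co-culture experiment. The hypoxic DMSO library 1 was thus far from its partner in collagen RNA, and the macrophage sum was lowest in the panobinostat libraries. In bulk RNA, fewer cells of a type and less RNA per cell cannot be told apart, and the part of these differences in the BMDM values below was not tested. BV2 libraries of the panobinostat experiment had fibroblast sums of 11.7 to 19.4 CPM. The 8 glioma and neural markers on the list summed to 147 to 282 CPM in BMDM alone and 156 to 317 CPM in BMDM with GL261. In the panobinostat experiment they summed to 27.2 to 224 CPM in BMDM and 0.906 to 8.48 CPM in BV2. What cells this RNA came from was not tested.

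**Figure D1:**
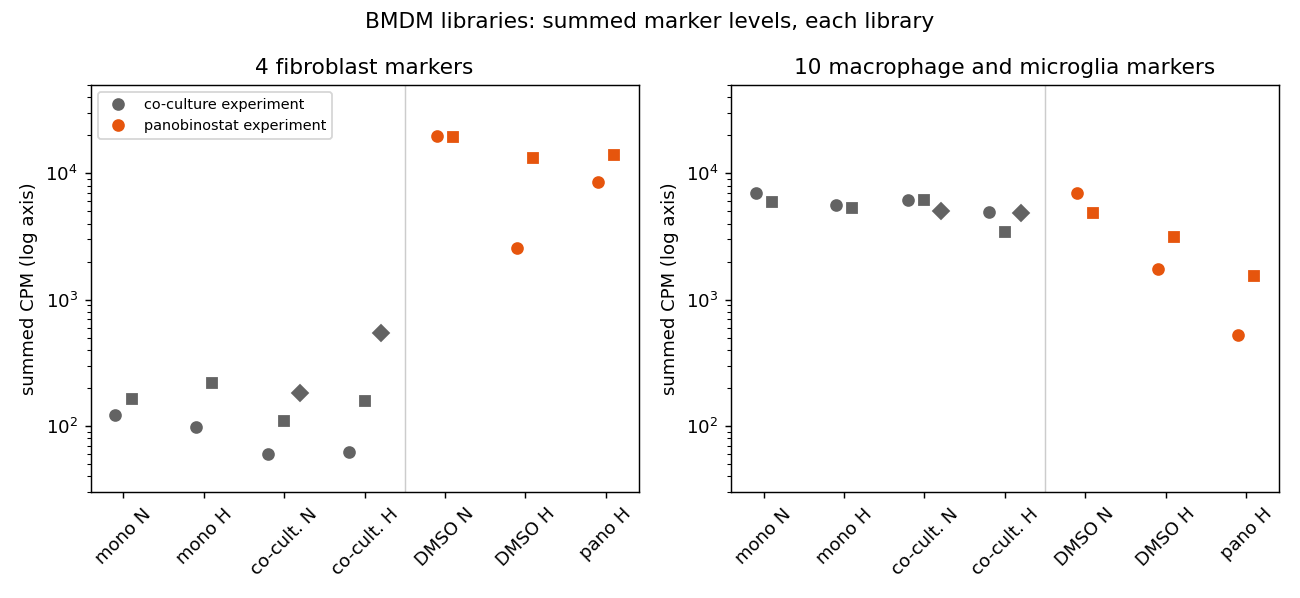
Summed unscaled CPM (log axis) of the fibroblast and the macrophage and microglia markers in each BMDM library, by group, with grey points for the co-culture experiment and orange points for the panobinostat experiment. Fibroblast sums lie at 2577 to 19747 CPM in the panobinostat experiment and at 60.6 to 546 CPM in the co-culture experiment, and the lowest macrophage sums (524 and 1532 CPM) belong to panobinostat.

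The windows before the start sites of 4 members are shown, of 6 members with a RefSeq window. Slc39a8, Dhrs3 and Tnfsf13b were higher in hypoxia than in normoxia in BMDM grown alone. So was Cd36, whose window is described below but not shown. Lmtk3 had the largest panobinostat difference of the members in BMDM. The windows come from RefSeq start sites (GRCm38.p6), run 5′ to 3′ on the gene's strand and leave out annotated exon bases. Capitals mark matches, on either strand, to ACGTG or GCGTG, the cores of the hypoxia response element, and to GGGCGG, the GC box. The Slc39a8 window is chr3:135825532-135825653 on the plus strand, before the second RefSeq start site, and is shown because it held motif matches where the window before the first site held none.
Slc39a8: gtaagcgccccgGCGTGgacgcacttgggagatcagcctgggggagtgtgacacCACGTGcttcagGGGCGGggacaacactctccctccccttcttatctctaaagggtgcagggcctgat
The Dhrs3 window is chr4:144892577-144892826 on the plus strand.
Dhrs3: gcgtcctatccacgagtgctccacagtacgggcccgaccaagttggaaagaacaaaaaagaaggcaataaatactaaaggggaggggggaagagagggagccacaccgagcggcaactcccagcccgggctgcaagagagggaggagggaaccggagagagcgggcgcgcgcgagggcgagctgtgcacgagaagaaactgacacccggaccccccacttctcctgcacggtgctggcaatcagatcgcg
The Tnfsf13b window is chr8:10006217-10006466 on the plus strand.
Tnfsf13b: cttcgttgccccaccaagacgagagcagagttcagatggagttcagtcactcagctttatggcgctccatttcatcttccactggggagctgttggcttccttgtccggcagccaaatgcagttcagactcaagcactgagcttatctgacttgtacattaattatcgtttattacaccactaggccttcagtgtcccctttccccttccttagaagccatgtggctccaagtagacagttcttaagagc
The Lmtk3 window is chr7:45785097-45785346 on the plus strand.
Lmtk3: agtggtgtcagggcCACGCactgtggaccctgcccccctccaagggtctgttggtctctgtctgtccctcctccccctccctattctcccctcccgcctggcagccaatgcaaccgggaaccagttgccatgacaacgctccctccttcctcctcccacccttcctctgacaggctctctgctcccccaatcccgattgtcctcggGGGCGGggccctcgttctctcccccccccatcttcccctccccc

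The 250 bases before the first Slc39a8 start site, chr3:135825029-135825278, held 0 matches to each of the 3 motifs. The 122-base Slc39a8 window held ACGTG on both strands of 1 palindrome, 1 match to GCGTG and 1 to GGGCGG. Of 32851 RefSeq windows of that length, 9.55% held ACGTG, 18% held GCGTG and 26.6% held GGGCGG. Those windows kept exon bases, and the Slc39a8 window was picked from 2 for its matches. The shares therefore do not measure how unusual that window is. The Lmtk3 window held GCGTG and GGGCGG, which 28.2% and 32.7% of windows of 250 bases also held. The Dhrs3 and Tnfsf13b windows held none of the 3 motifs, which says only that these letters are not in these windows. The Dhrs3 window had 19 CpG dinucleotides and 61.6% G and C, and the Tnfsf13b window 5 and 48.8%. Of the members not shown, the Cd36 window (chr5:17835897-17836146, minus strand) held 2 matches to GGGCGG and none to the other motifs, and the Atp2b4 window (chr1:133753750-133753997, minus strand) held none of the 3. The start sites used for Cd36 and Atp2b4 lie 52905 and 47294 bases inside the gene from its annotated start, and that of Lmtk3 1609 bases. Sequence before the annotated starts of these genes was not searched. No RefSeq window was matched for Ighm.

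In BV2, panobinostat in hypoxia went with higher Slc39a8 (32 counts against 1), Cd36 and Atp2b4 than DMSO in hypoxia, by 12.5- and 17.4-fold for the latter, and with lower Ighm and Tnfsf13b, by 18.1- and 11.3-fold. In BMDM the same comparison showed Slc39a8, Cd36, Dhrs3 and Tnfsf13b lower and Lmtk3 higher by 111-fold. The libraries of the groups did not overlap for 6 of the 7 members in BV2 and 6 of 7 in BMDM, where 64.1% and 56.3% of all tested genes did not overlap. These comparisons chose the members, so nothing is read from those counts. For scale, edgeR called 14.6% of 13294 genes in this BV2 comparison, and 30.3% with the replicate number as a block. In BMDM it called 0% of 14914 genes, although 3868 had an unadjusted p under 0.05. There DESeq2 called 2221 genes, and edgeR with the replicate block called 2044, or 13.7%.

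**Figure D2:**
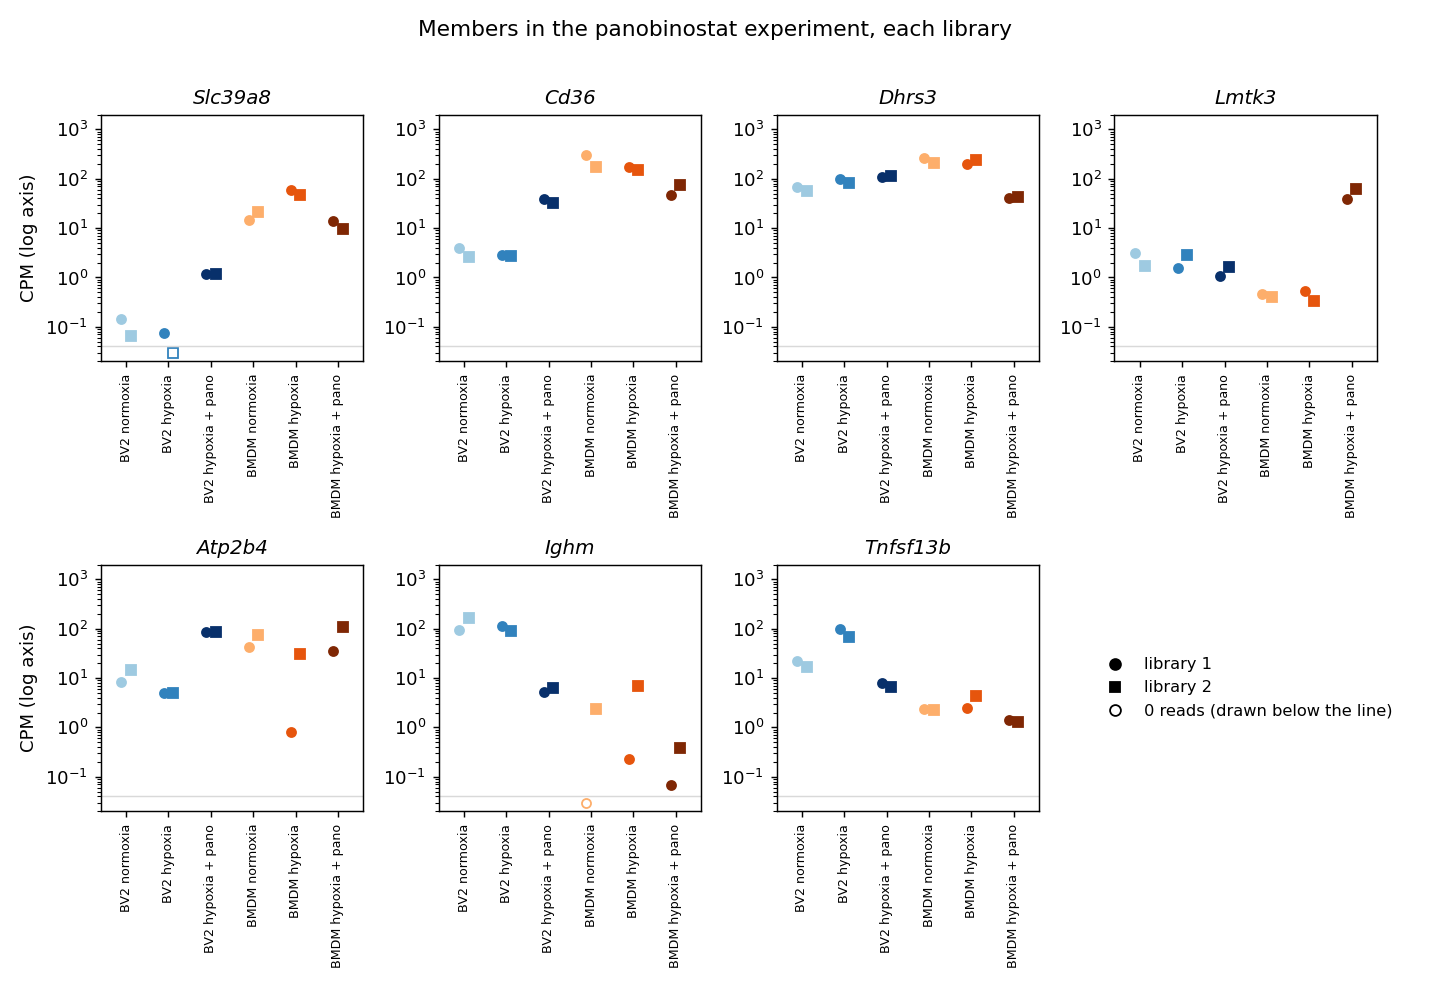
CPM (log axis) of each member in every library of the panobinostat experiment, 1 panel per gene, with libraries 1 and 2 of each group as separate symbols and open symbols for 0 counts. The panobinostat libraries of Slc39a8, Cd36 and Atp2b4 stand above the other BV2 libraries, and those of Lmtk3 (38.5 and 63.2 CPM) above the other BMDM libraries.

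Slc39a8 (chr3:135825279-135888572, plus strand) encodes ZIP8, a transporter that brings zinc, manganese and other divalent metals into cells. In BV2 it was at or near 0 with DMSO, at 0.142 and 0.0644 CPM in normoxia (2 and 1 counts) and 0.0756 and 0 CPM in hypoxia (1 and 0 counts). With panobinostat both BV2 libraries held it, at 1.17 and 1.18 CPM (15 and 17 counts). Set against the hypoxic DMSO libraries, 32 counts stood against 1, a depth-adjusted ratio of 32.1 with a 95% counting interval of 5.36 to 1306. Against normoxia the ratio was 11.6 (3.63 to 59.1), from 32 counts against 3.

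In BMDM, Slc39a8 stood at 14.7 and 21.0 CPM in DMSO normoxia, 58.0 and 47.2 CPM in DMSO hypoxia and 14.3 and 9.49 CPM with panobinostat in hypoxia. The hypoxic DMSO libraries were the high ones, and the panobinostat libraries lay below both DMSO groups. The log2 difference from hypoxic DMSO was -2.17 (SE 0.33), a 4.50-fold lower level, and that from normoxia was -0.57. The BV2 difference minus the BMDM difference was 6.83 (SE 0.79) on the log2 scale, from 5.83 to 9.05 when 1 library was left out, a fitted value that depends on how 1 count is treated. With panobinostat, BV2 was still below every BMDM library.

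The hypoxia difference of Slc39a8 in BMDM could be tested in the separate co-culture experiment. BMDM grown alone had 12.96 and 11.1 CPM in normoxia and 39.5 and 42.6 CPM in hypoxia, a rise of 1.77 on the log2 scale (SE 0.19, edgeR, adjusted p = 1.72e-04). BMDM co-cultured with GL261 had 10.6, 8.45 and 9.92 CPM in normoxia and 23.1, 23.6 and 18.8 CPM in hypoxia, a rise of 1.17 (SE 0.16, adjusted p = 3.02e-04). The hypoxic groups did not overlap the normoxic ones in either setting. In hypoxia the co-cultured BMDM had less than BMDM alone, by a log2 change of -0.91 (SE 0.17, adjusted p = 0.0128). That call was lost when either hypoxic monoculture library was left out.

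BV2 libraries of the co-culture experiment held 0 to 0.131 CPM of Slc39a8, at most 2 counts, and the gene did not pass the count filter there. GL261 libraries held 0.492 to 0.962 CPM. GL261 alone in normoxia had 23 counts where BV2 alone had 0, at least 8.48-fold more against a floor of 3 counts over the BV2 group, with no test because the gene passed the joint filter through GL261.

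Cd36 (chr5:17781690-17888801, minus strand) encodes a scavenger receptor that takes up fatty acids and oxidised lipoproteins. BV2 had 3.89 and 2.64 CPM in DMSO normoxia, 2.87 and 2.76 CPM in DMSO hypoxia and 38.3 and 32.7 CPM with panobinostat. Both panobinostat libraries were far above the 4 DMSO libraries, which differed little from one another. The log2 difference was 3.64 (SE 0.29) against hypoxic DMSO and 3.41 against normoxia.

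BMDM had much more Cd36 at the outset, 310 and 175 CPM in DMSO normoxia and 173 and 150 CPM in DMSO hypoxia, and 47.9 and 75.8 CPM with panobinostat. The panobinostat libraries were the low ones, below both DMSO groups. The log2 difference was -1.41 (SE 0.39) against hypoxic DMSO and -1.96 against normoxia. With panobinostat the levels of the 2 cell types were closer than with DMSO, though BV2 stayed lower. BV2 had 38.3 and 32.7 CPM and BMDM 47.9 and 75.8 CPM, scaled separately. The BV2 difference minus the BMDM difference was 5.04 (SE 0.48).

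In the co-culture experiment, Cd36 rose with hypoxia in BMDM alone, from 118 and 133 CPM to 229 and 258 CPM (log2 change 0.95, SE 0.26, edgeR adjusted p = 0.0214). With any 1 of these 4 libraries left out, the adjusted p ran from 0.0776 to 0.175, and over all 10 alternatives from 2.44e-04. In BMDM with GL261 the values were 94.7, 131 and 110 CPM in normoxia and 111, 186 and 109 CPM in hypoxia, and the groups overlapped (adjusted p = 0.336). The BMDM hypoxia difference with DMSO in the panobinostat experiment was -0.55, opposite in sign to that in BMDM alone. BV2 held 2.36 to 9.05 CPM over its 8 libraries, with adjusted p of 0.433 and 0.484 for hypoxia alone and in co-culture. GL261 had 0 counts in 7 of 8 libraries, and BV2 alone in normoxia had at least 33.8-fold more than GL261 (112 against 0 counts).

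Among 18 other genes of fatty acid uptake and activation, 15 passed the filter in BV2 of the panobinostat experiment, 1 rose and 1 fell, with a median log2 difference of -0.05 where that over all tested genes was -0.01. Cpt1a, which carries long-chain fatty acids into mitochondrial oxidation, rose from 46.8 ± 6.9 to 84.2 ± 0.25 CPM (SD, n = 2; log2 change 0.83, edgeR adjusted p = 0.0335). Slc27a1, a fatty acid transport protein, fell from 829 ± 221 to 248 ± 8.7 CPM (log2 change -1.75, adjusted p = 0.00966). With the replicate block 1 rose and 3 fell. In BMDM 0 of 17 passed, and 3 fell with the block, among them Slc27a1 (log2 change -1.94, adjusted p = 0.0245). Hypoxia in monoculture raised 6 and lowered 4 of 16 in BV2 and raised 3 and lowered 3 of 17 in BMDM. Of all tested genes, it raised 30.9% and lowered 31.0% in BV2 and raised 13.3% and lowered 10.6% in BMDM. The same shares stand beside the hypoxia counts of the lists below.

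Among 26 other genes of zinc transport and buffering, 20 passed the filter in BV2 and 1 rose with panobinostat, Slc39a14, the transporter ZIP14. It went from 45.3 ± 6.5 to 77.6 ± 3.1 CPM (SD, n = 2; log2 change 0.77, edgeR adjusted p = 0.0485). The list's median log2 difference was 0.04. With the replicate block 4 rose and 4 fell. BMDM had 0 of 20 that passed, with a median of -0.35 against -0.03 for all tested genes, and with the block 1 rose and 3 fell. In the monocultures, hypoxia raised 7 and lowered 4 of 20 in BV2 and raised 5 and lowered 1 of 19 in BMDM.

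Atp2b4 (chr1:133699457-133801041, minus strand) encodes PMCA4, a plasma membrane pump that moves calcium out of the cell. BV2 had 8.35 and 14.7 CPM in DMSO normoxia, 4.92 and 4.95 CPM in DMSO hypoxia and 86.2 and 87.0 CPM with panobinostat. The panobinostat libraries stood above all others and the hypoxic DMSO libraries below all others. The log2 difference was 4.12 (SE 0.31) against hypoxic DMSO and 2.86 against normoxia.

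In BMDM, Atp2b4 was at 42.4 and 75.1 CPM in DMSO normoxia, 0.823 and 31.0 CPM in DMSO hypoxia and 34.8 and 109 CPM with panobinostat. Library 2 was the higher one in all 3 groups. The hypoxic DMSO library with 0.823 CPM (11 counts against 275) was also the one with the lowest fibroblast sum, 2577 CPM against 13317 CPM in its partner, and the part of that difference was not tested. The log2 difference from hypoxic DMSO was 2.15 (SE 1.37), it was 6.43 without hypoxic DMSO library 2, and against normoxia the groups overlapped (0.32). The BV2 difference minus the BMDM difference was 1.94 (SE 1.48), and -2.45 without that library, so the sign of this contrast rests on it.

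In the co-culture experiment, Atp2b4 fell with hypoxia in BV2 with GL261, from 7.08 and 10.8 CPM to 3.41 and 5.15 CPM (log2 change -1.24, SE 0.36, edgeR adjusted p = 0.0061). The call was lost without normoxic co-culture library 2 (adjusted p = 0.0755) and with DESeq2 (0.0509), and the adjusted p over 10 alternatives ran from 1.92e-09 to 0.0755. In BV2 alone the values were 8.17 and 14.6 CPM in normoxia and 4.95 and 10.6 CPM in hypoxia, and the groups overlapped (adjusted p = 0.0789). The comparison passed without normoxic library 1 or hypoxic library 2 (log2 changes -1.03 and -1.29), with adjusted p from 0.0017 to 0.661 over 10 alternatives.

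In BMDM with GL261, Atp2b4 fell from 17.1, 16.4 and 14.8 CPM to 9.23, 7.96 and 10.6 CPM (log2 change -0.80, SE 0.22, adjusted p = 0.0147), while BMDM alone had 13.8 and 22.8 CPM in normoxia and 17.2 and 23.2 CPM in hypoxia (adjusted p = 0.733). In GL261 with BV2 it rose, from 3.22 and 4.73 CPM to 8.31 and 7.34 CPM (log2 change 0.95, SE 0.28, adjusted p = 0.0152). That call was lost without normoxic library 1 (adjusted p = 0.133) or hypoxic library 1 (0.0597), within a range of 8.27e-04 to 0.133 over 10 alternatives. Hypoxic co-cultured BMDM had less than hypoxic BMDM alone (log2 change -1.13, SE 0.24, adjusted p = 0.0208), a call lost in 4 of 12 alternatives. These were leaving out either hypoxic monoculture library, fitting only the groups compared (adjusted p = 0.0560) and leaving out genes 4-fold or more higher in GL261 (0.0660). In normoxia, BV2 alone exceeded GL261 alone by 1.22 on the log2 scale (adjusted p = 0.00438), lost without BV2 library 2 (0.73, adjusted p = 0.107, the highest of 10 alternatives, whose lowest was 2.16e-07).

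Among 12 other calcium pumps and exchangers, 6 passed the filter in BV2 and 0 passed the panobinostat test, by edgeR with or without the block. The median log2 difference was 0.03. In BMDM 0 of 8 passed, and with the block 2 sodium-calcium exchangers rose, Slc8a2 (log2 change 3.44, adjusted p = 0.0357) and Slc8a3 (2.59, adjusted p = 0.0328). In cells grown alone, hypoxia raised 4 of 8 in BV2 and 1 of 6 in BMDM and lowered 0 in both.

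Dhrs3 (chr4:144892827-144928209, plus strand) encodes a retinal reductase that turns all-trans-retinal back into retinol and so lowers the supply for retinoic acid. BV2 had 68.0 and 55.6 CPM in DMSO normoxia, 99.7 and 82.6 CPM in DMSO hypoxia and 107 and 112 CPM with panobinostat. The 3 groups did not overlap, but panobinostat and hypoxic DMSO were close, with a log2 difference of 0.25 (SE 0.20), 0.12 to 0.37 with 1 library left out. Against normoxia it was 0.78.

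BMDM had 269 and 211 CPM in DMSO normoxia, 196 and 238 CPM in DMSO hypoxia and 41.5 and 43.5 CPM with panobinostat. The DMSO groups overlapped, and both panobinostat libraries were far below them, by a log2 difference of -2.38 (SE 0.27) against hypoxic DMSO and -2.48 against normoxia. The BV2 difference minus the BMDM difference was 2.61 (SE 0.31).

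Dhrs3 rose with hypoxia in 5 of 6 comparisons of the co-culture experiment. BV2 alone went from 56.8 and 54.0 CPM to 117 and 134 CPM (log2 change 1.06, SE 0.13, edgeR adjusted p = 2.76e-06). BV2 with GL261 went from 51.8 and 57.9 CPM to 115 and 147 CPM (1.10, SE 0.13, adjusted p = 1.94e-06). These 4 groups split cleanly by oxygen.

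BMDM alone went from 286 and 260 CPM to 553 and 536 CPM (log2 change 1.00, SE 0.23, edgeR adjusted p = 0.0109), with adjusted p of 0.0618 to 0.100 when any 1 of these 4 libraries was left out and down to 1.19e-04 in other alternatives. BMDM with GL261 went from 286, 320 and 223 CPM to 659, 462 and 422 CPM (0.90, SE 0.19, adjusted p = 0.00387). GL261 alone went from 5.82 and 7.28 CPM to 11.9 and 28.3 CPM (1.59, SE 0.51, adjusted p = 0.0257), and this call was lost with DESeq2 (0.0851) and without normoxic library 1 (0.143), normoxic library 2 (0.0784) or hypoxic library 2 (0.208), the highest of 10 alternatives, whose lowest was 4.54e-12. GL261 with BV2 had 4.54 and 4.95 CPM in normoxia and 4.71 and 18.7 CPM in hypoxia, groups that overlapped (adjusted p = 0.0652). The order of the levels in normoxic monoculture was BMDM, BV2 and GL261, and BV2 exceeded GL261 by 3.08 on the log2 scale (adjusted p = 1.99e-06).

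Among 27 other genes of retinoid metabolism and its receptors, 17 passed the filter in BV2, 1 rose and 2 fell with panobinostat, and the median log2 difference was -0.04. Rdh12, a retinal reductase, rose from 0.644 ± 0.59 to 6.79 ± 2.2 CPM (SD, n = 2; log2 change 3.35, edgeR adjusted p = 0.00898). Rdh10, which oxidises retinol to retinal, fell from 5.88 ± 0.29 to 2.75 ± 0.70 CPM (log2 change -1.10, adjusted p = 0.0458), and Dhrs4, another short-chain reductase, fell from 15.8 ± 1.4 to 7.23 ± 0.25 CPM (-1.14, adjusted p = 0.0165). With the block 1 rose and 4 fell. BMDM had 0 of 20 that passed, with a median of 0.26, and with the block 2 rose and 2 fell, Dhrs4 among them (-1.80, adjusted p = 0.0245). Hypoxia in monoculture raised 8 and lowered 6 of 18 in BV2 and raised 2 and lowered 0 of 17 in BMDM.

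Lmtk3 (chr7:45783738-45804144, plus strand) encodes a lemur tail kinase, a membrane-anchored protein kinase known best in neurons and some tumours. BMDM had 0.462 and 0.405 CPM in DMSO normoxia (6 counts each), 0.524 and 0.338 CPM in DMSO hypoxia (7 and 3 counts) and 38.5 and 63.2 CPM with panobinostat (554 and 833 counts). The DMSO groups overlapped near the floor, and both panobinostat libraries were high. The log2 difference was 6.80 (SE 0.47) against hypoxic DMSO and 6.87 against normoxia.

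In BV2, Lmtk3 was at 3.11 and 1.74 CPM in DMSO normoxia, 1.59 and 2.90 CPM in DMSO hypoxia and 1.09 and 1.66 CPM with panobinostat. The hypoxic DMSO and panobinostat libraries overlapped, with a log2 difference of -0.72 (SE 0.51). The BV2 difference minus the BMDM difference was -7.51 (SE 0.71), the largest in size among the 7 members. The Lmtk3 exons overlap those of Sult2b1 on the opposite strand over 243 bases, 4.23% of the exonic bases, and whether the authors' counting used strand is not given in the sources used here.

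GL261 expressed Lmtk3 at 44.1 to 65.8 CPM over its 8 libraries, where BV2 alone had 0.624 to 1.71 CPM and BMDM alone 0.509 to 2.46 CPM. BV2 alone in normoxia was below GL261 by a log2 difference of -5.92 (edgeR adjusted p = 3.84e-13). Hypoxia in GL261 gave adjusted p of 0.402 alone and 0.428 in co-culture. In BV2 alone Lmtk3 rose from 0.932 and 0.624 CPM to 1.71 and 1.44 CPM (log2 change 0.89, SE 0.36, adjusted p = 0.0443), a call lost with DESeq2 (0.104) and without normoxic library 2, hypoxic library 1 or hypoxic library 2, with adjusted p from 0.0385 to 0.249 over 9 alternatives. In BMDM alone it stood at 2.46 and 1.26 CPM in normoxia and 0.509 and 0.69 CPM in hypoxia (adjusted p = 0.0824).

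Co-cultured myeloid libraries held more Lmtk3 than monocultures in each of 4 comparisons, 2 of which passed the test. Hypoxic BMDM with GL261 had 4.51, 5.95 and 8.88 CPM, above hypoxic BMDM alone (log2 change 3.41, SE 0.59, edgeR adjusted p = 0.0107), a call lost without either hypoxic monoculture library. Normoxic BMDM with GL261 had 3.02, 5.48 and 9.34 CPM, above normoxic BMDM alone but with an adjusted p of 0.161. BV2 with GL261 had 2.07 and 1.57 CPM in normoxia (log2 change 1.11, SE 0.36, adjusted p = 0.0483, lost with DESeq2 and when any 1 of the 4 libraries was left out) and 2.95 and 3.37 CPM in hypoxia (adjusted p = 0.0754).

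GL261-specific transcripts moved with these differences. Their level, set against GL261 monoculture, corresponded to 1.27% to 3.69% of the RNA in normoxic and 1.69% to 6.38% in hypoxic co-cultured BMDM libraries, against 0.0321% to 0.0412% in BMDM alone. Those shares times the GL261 level of Lmtk3 give 1.03, 1.96 and 3.88 CPM in hypoxic co-cultured BMDM, where 4.38, 5.47 and 9.06 CPM (unscaled) were counted. In normoxic co-cultured BMDM the products were 0.687, 1.19 and 1.99 CPM where 3.20, 5.72 and 9.79 CPM were counted. In co-cultured BV2 they were 0.515 and 0.307 CPM in normoxia and 1.25 and 1.43 CPM in hypoxia. There 2.07 and 1.53 CPM and 2.43 and 2.76 CPM were counted. Each product was below the counted level, but it leaves out the cells' own level. In monoculture that was 2.00 CPM (normoxia) and 0.540 CPM (hypoxia) in BMDM and 0.785 and 1.42 CPM in BV2. The part of GL261 RNA in these differences was not tested.

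Of the 2 other lemur tail kinases, Aatk fell in BV2 with panobinostat, from 70.9 ± 6.1 to 30.9 ± 2.0 CPM (SD, n = 2; log2 change -1.21, edgeR adjusted p = 0.0391), and Lmtk2 rose there with the block (0.63, adjusted p = 0.0191). In BMDM 0 of 2 passed, and with the block Lmtk2 rose (0.91, adjusted p = 0.0381) and Aatk fell (-1.80, adjusted p = 0.0452). The list's median log2 difference was -0.31 in BV2 and -0.45 in BMDM. In the monocultures, hypoxia raised 1 of 2 in BV2 and 1 of 2 in BMDM.

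Ighm (chr12:113418558-113422730, minus strand) is the constant region gene of the immunoglobulin mu heavy chain, the first heavy chain made by B cells. BV2 had 95.8 and 164 CPM in DMSO normoxia, 114 and 91.0 CPM in DMSO hypoxia and 5.22 and 6.15 CPM with panobinostat. The DMSO groups overlapped, and both panobinostat libraries were far below them, by a log2 difference of -4.18 (SE 0.32) against hypoxic DMSO and -4.56 against normoxia. The 7 B cell markers on the list, Igkc and Jchain among them, summed to 0.215 to 0.545 CPM in these libraries, and Igkc, the kappa light chain constant region, had 0 counts in every BV2 library. Blnk, an adaptor of B cell receptor signalling, had 513 to 868 counts in the same 6 libraries.

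In BMDM, Ighm had 0 and 2.36 CPM in DMSO normoxia (0 and 35 counts), 0.224 and 6.99 CPM in DMSO hypoxia (3 and 62 counts) and 0.0696 and 0.379 CPM with panobinostat (1 and 5 counts). Library 2 was the higher one in each group, and the groups overlapped. The fitted log2 difference from hypoxic DMSO was -3.99 (SE 2.15), and it was -0.02 without hypoxic DMSO library 2, so the difference rests on that library. The 7 B cell markers summed to 0.104 to 0.624 CPM in these 6 libraries. Blnk had 172 to 952 counts there, and Ebf1, a transcription factor on the B lineage list, 287 to 1245 counts. In BMDM of the co-culture experiment, where the fibroblast sums were far lower, Ebf1 had 1 to 14 counts. What cells the Ebf1 RNA came from was not tested.

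In the co-culture experiment, BV2 alone had 59.7 and 87.9 CPM of Ighm in normoxia and 58.2 and 70.6 CPM in hypoxia, groups that overlapped (edgeR adjusted p = 0.303). With GL261 it fell with hypoxia, from 50.5 and 113 CPM to 25.4 and 28.9 CPM (log2 change -1.76, SE 0.27, adjusted p = 3.36e-05). The change was -2.23 without normoxic co-culture library 1 and -1.03 without library 2, and it passed in each of 10 alternatives. Hypoxic BV2 with GL261 was also below hypoxic BV2 alone (-1.36, SE 0.27, adjusted p = 0.0026). The share of GL261 RNA in the co-cultured BV2 libraries was 0.568% to 0.953% in normoxia and 2.06% to 2.36% in hypoxia, and its part in these values was not tested.

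BMDM held 2.68 to 32.6 CPM of Ighm over the 10 libraries of that experiment, and edgeR gave its 4 comparisons of oxygen or culture adjusted p from 0.0589 to 0.698. The difference of hypoxic co-cultured from hypoxic BMDM alone (log2 difference -1.94, adjusted p = 0.0589) passed in 4 of 12 alternatives, DESeq2 and the fit without hypoxic co-culture library 1 among them, with adjusted p from 3.57e-11 to 0.356 over the 12. GL261 held 0.0492 to 0.895 CPM, below the count filter of its own fit. BV2 alone in normoxia had 3383 counts where GL261 had 3, a depth-adjusted ratio of 1019 with a 95% counting interval of 348 to 4945.

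Of 17 other immunoglobulin and B lineage genes, 1 passed the filter in BV2 of the panobinostat experiment and 0 passed the test, with or without the block. In BMDM 3 passed the filter and 0 the test, and with the block Cd22, an inhibitory B cell lectin, fell (log2 change -2.72, edgeR adjusted p = 0.0496). The medians were -0.04 and -0.97. In cells grown alone, hypoxia raised 1 of 2 in BV2 and 0 of 4 in BMDM.

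Tnfsf13b (chr8:10006467-10039072, plus strand) encodes BAFF, a cytokine of the tumour necrosis factor family that keeps B cells alive. BV2 had 22.0 and 16.5 CPM in DMSO normoxia, 96.7 and 69.1 CPM in DMSO hypoxia and 8.02 and 6.71 CPM with panobinostat in hypoxia. Hypoxic DMSO was the high group and panobinostat the low one, below normoxia as well. The log2 difference was 2.08 for hypoxia with DMSO, -3.50 (SE 0.27) for panobinostat against hypoxic DMSO and -1.42 against normoxia.

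BMDM had far less Tnfsf13b, 2.39 and 2.23 CPM in DMSO normoxia, 2.47 and 4.28 CPM in DMSO hypoxia and 1.39 and 1.29 CPM with panobinostat (20 and 17 counts). The order of the groups was the same as in BV2. The log2 difference from hypoxic DMSO was -1.35 (SE 0.48), and -0.88 without hypoxic DMSO library 2. The BV2 difference minus the BMDM difference was -2.19 (SE 0.47).

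Tnfsf13b rose with hypoxia in BV2 of the co-culture experiment too, in libraries that had no part in choosing it. BV2 alone went from 19.99 and 19.7 CPM to 96.9 and 92.1 CPM (log2 change 2.13, SE 0.12, edgeR adjusted p = 4.10e-10), and BV2 with GL261 from 23.9 and 21.8 CPM to 88.2 and 90.4 CPM (1.81, SE 0.12, adjusted p = 2.14e-09). BMDM alone went from 2.63 and 3.08 CPM to 7.63 and 9.66 CPM (1.60, SE 0.43, adjusted p = 0.0205), with adjusted p of 0.0604 to 0.147 when any 1 of these 4 libraries was left out and down to 0.00113 in other alternatives. BMDM with GL261 had 3.33, 3.70 and 1.93 CPM in normoxia and 7.72, 4.91 and 3.05 CPM in hypoxia, groups that overlapped (adjusted p = 0.108).

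GL261 held 0.047 to 0.412 CPM of Tnfsf13b, and BV2 alone exceeded GL261 alone in normoxia by 6.64 on the log2 scale, given as a description because the gene passed the joint filter through BV2. The median log2 difference over all tested genes between these lines was -0.12, so relative to the bulk of genes each difference of BV2 against GL261 given here is higher by that amount. In this comparison edgeR called 33.8% of 16882 genes higher in BV2, 39.4% higher in GL261 and 73.2% in either direction. Slc39a8, Cd36, Ighm and Tnfsf13b passed the filter of the joint fit through the line in which they were high, so no count over the members is given.

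Among 12 other genes of the BAFF and APRIL system with noncanonical NF-kB signalling, 10 passed the filter in BV2 and 0 passed the panobinostat test, with a median log2 difference of -0.17; with the block 1 rose and 1 fell. BMDM had 0 of 10 that passed, with a median of -0.67, and with the block Birc3, a ubiquitin ligase of this pathway, fell (log2 change -2.12, edgeR adjusted p = 0.0215), as did Relb, its transcription factor (-1.17, adjusted p = 0.0271). Hypoxia in monoculture raised 4 and lowered 3 of 10 in BV2 and raised 1 and lowered 1 of 10 in BMDM. It raised 8 and lowered 1 of 11 in GL261, where 23.2% of all tested genes rose and 21.4% fell. The GL261 counts of the other lists are not given, so nothing is read from this one.

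The hypoxia comparisons of the co-culture experiment were set against all tested genes. In BV2 alone 3 members rose and 0 fell of the 6 that passed the filter, where 30.9% of 14432 genes rose, 31.0% fell and 61.9% were called. In BV2 with GL261 2 rose and 2 fell, where 35.2% rose, 32.1% fell and 67.3% were called. In GL261, 1 of 4 rose alone, where 23.2% of 15189 genes rose, 21.4% fell and 44.6% were called, and 1 of 4 rose in co-culture, where 26.8% rose, 25.6% fell and 52.4% were called. In BMDM alone 4 of 7 rose, where 13.3% of 14806 genes rose, 10.6% fell and 23.9% were called. In BMDM with GL261 2 rose and 1 fell, where 17.5% rose, 17.3% fell and 34.8% were called.

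The co-culture comparisons called fewer members. In BV2, 1 of 6 passed in normoxia and 1 of 6 in hypoxia, where 14.9% and 15.7% of genes did. In BMDM it was 0 of 7 in normoxia (1 at an unadjusted p under 0.05 and 1 by DESeq2) and 3 of 7 in hypoxia, where 1.64% and 7.11% did. In GL261 edgeR called 0 of 4 members in normoxia and 0 of 4 in hypoxia, and 0 also by DESeq2 or at an unadjusted p under 0.05, where 0.514% and 1.39% of genes were called.

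**Figure D3:**
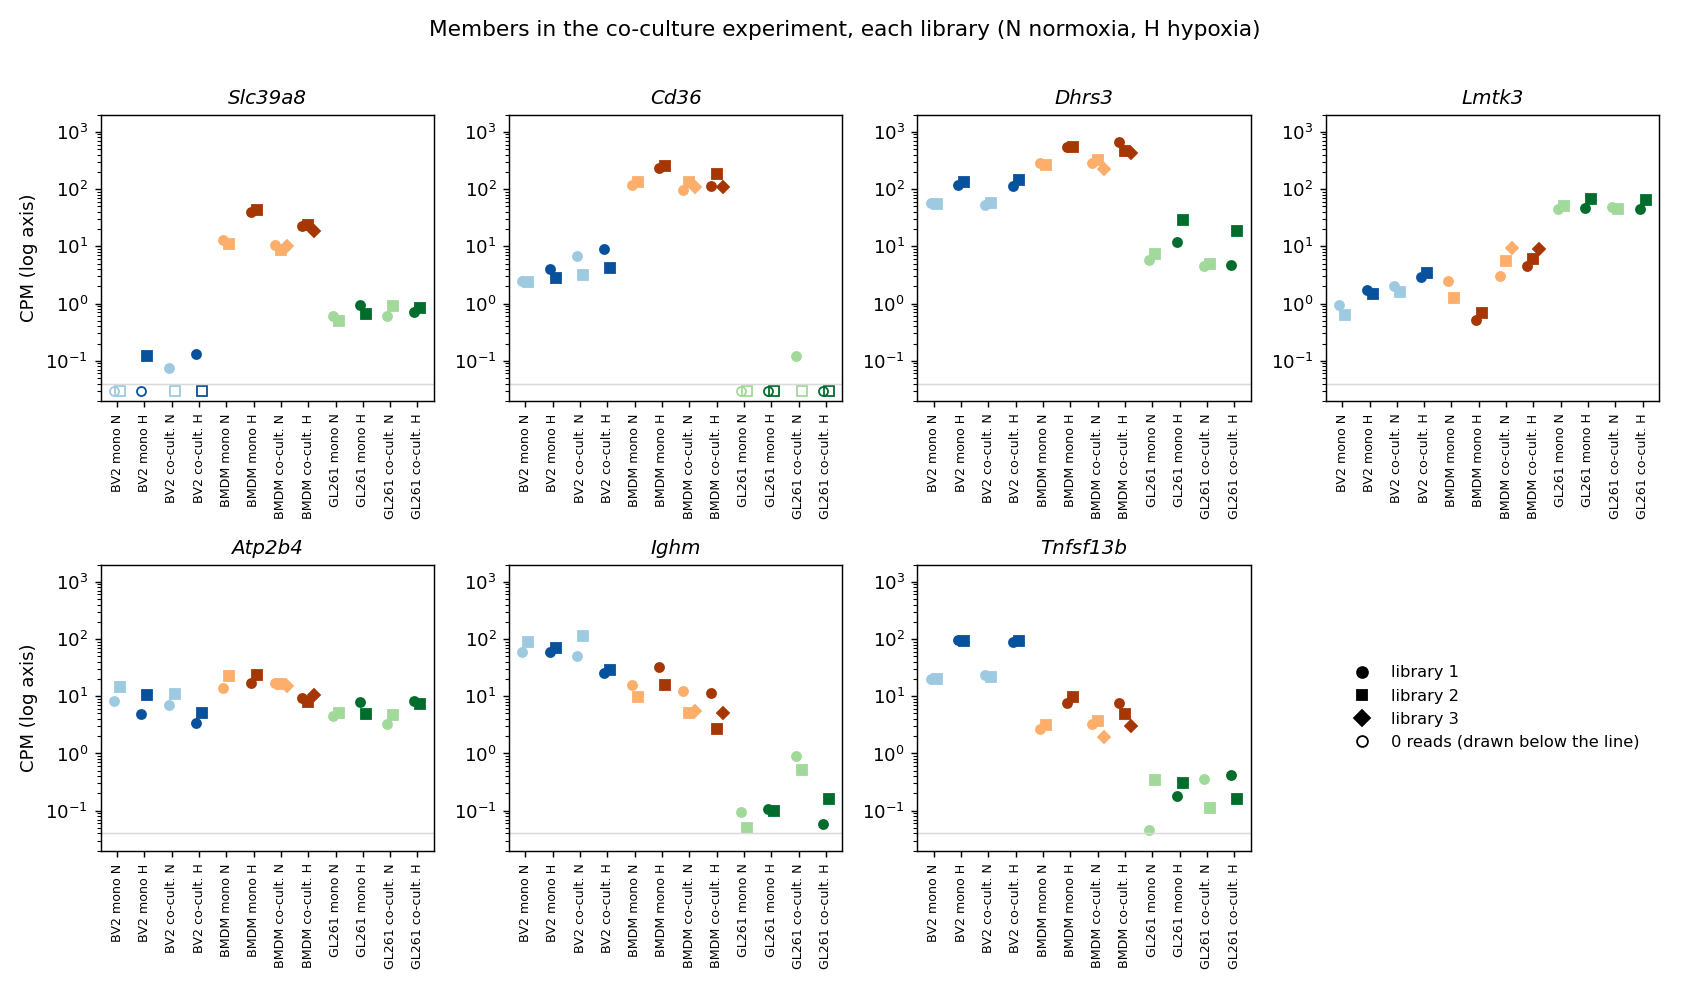
CPM (log axis) of each member in every library of the co-culture experiment, 1 panel per gene, by cell type, culture and oxygen, with separate symbols for libraries 1, 2 and 3 and open symbols for 0 counts. Slc39a8, Cd36 and Dhrs3 were highest in BMDM, Ighm and Tnfsf13b in BV2 and Lmtk3 in GL261 (44.1 to 65.8 CPM).

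**Figure D4:**
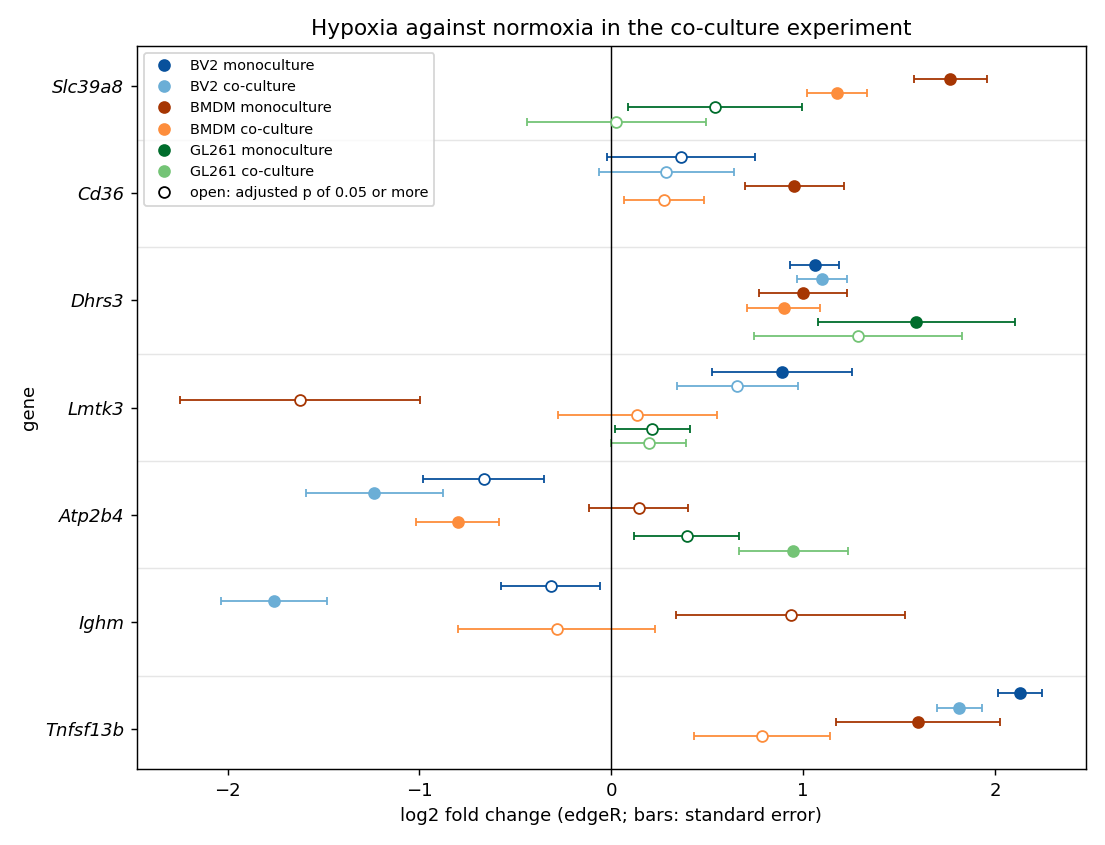
Log2 fold change of hypoxia against normoxia with its standard error for each member in BV2, GL261 and BMDM of the co-culture experiment, with open symbols where the edgeR adjusted p was 0.05 or more. Dhrs3 lies to the right of 0 in each comparison, and Tnfsf13b is farthest to the right in BV2 (2.13 alone and 1.81 in co-culture).

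**Figure D5:**
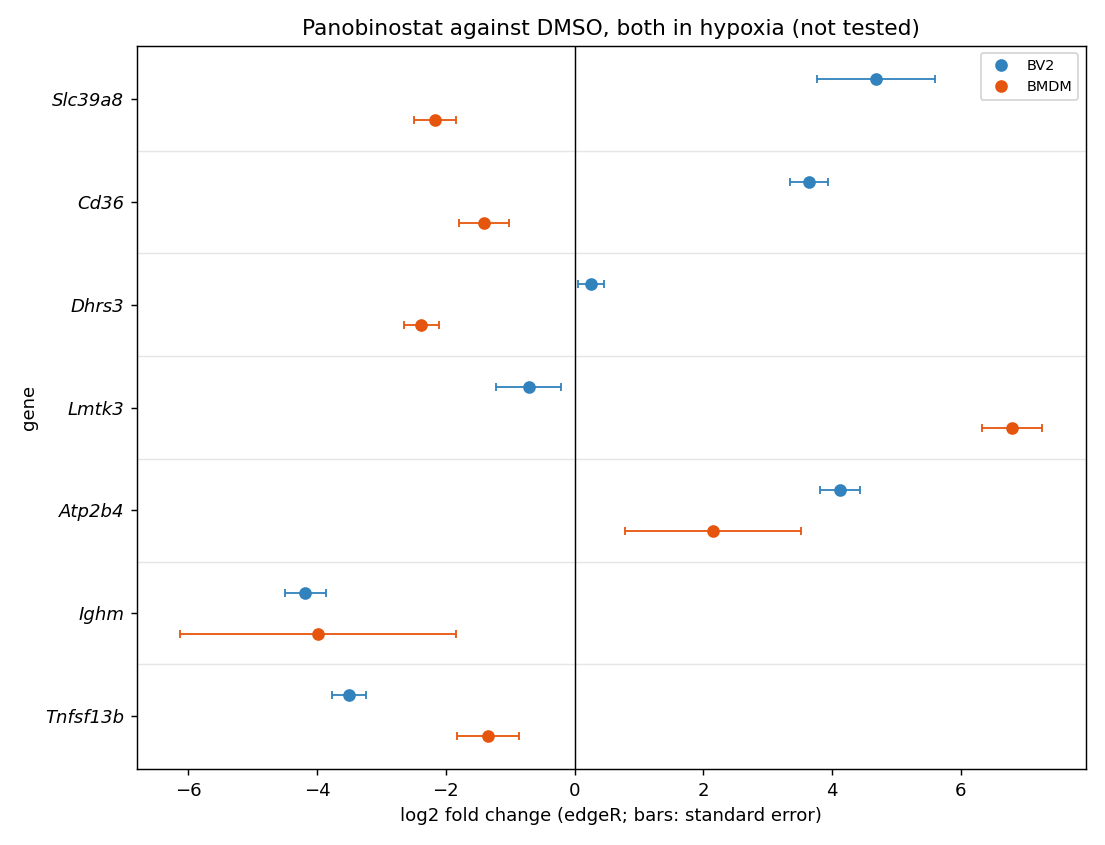
Log2 fold change of panobinostat against DMSO in hypoxia with its standard error for each member in BV2 and BMDM, shown as a description because these values chose the genes. Slc39a8 (4.68 and -2.17) and Cd36 (3.64 and -1.41) lie on opposite sides of 0 in the 2 cell types, and Lmtk3 in BMDM (6.80) is farthest from 0.

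Genes widely used as readouts of HDAC inhibition were set beside the members. In BV2, 5 of 6 passed the filter, 2 rose with panobinostat and the median log2 difference was 0.52. H1f0, a linker histone, rose from 154 ± 14 to 518 ± 38 CPM (SD, n = 2; log2 change 1.74, edgeR adjusted p = 0.00747). Hdac1 itself rose from 60.5 ± 10.1 to 130 ± 5.6 CPM (1.09, adjusted p = 0.0170). Cdkn1a, a cell cycle inhibitor gene, did not rise, at 592 ± 123 CPM with DMSO and 488 ± 22 CPM with panobinostat (-0.29, adjusted p = 0.554). Hdac2 (0.52, adjusted p = 0.185) and Hdac3 (0.18, adjusted p = 0.583) did not pass either, and with the block 3 of the list rose. In BMDM 0 of 6 passed, with a median of 0.88, and with the block Hdac1 (1.34, adjusted p = 0.0252) and Hdac11 (1.95, adjusted p = 0.0271) rose. H1f0 and Cdkn1a did not pass in BMDM with the block. In the monocultures, hypoxia raised 1 and lowered 3 of 5 in BV2 and raised 2 and lowered 2 of 6 in BMDM.

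The genes whose log2 CPM followed each member most closely over the 12 libraries of the panobinostat experiment are given as a description, out of 10760 genes ranked, since these libraries fall into 2 cell types. For Slc39a8 they were Mief2 (Pearson r = 0.978) and Akr1c13 (0.969), and for Cd36 they were Slc41a3 (0.973) and Ggh (0.961). For Atp2b4 they were Pak1 (0.953) and Inpp5f (0.939), and for Dhrs3 Pias3 (0.937) and Dpep2 (0.935). For Lmtk3 they were Hs2st1 (0.903) and Msh5 (0.876), for Ighm Zzz3 (0.960), and for Tnfsf13b Aacs (0.980) and Wars2 (0.968). Pak1, a p21-activated kinase, had 24.8 ± 7.3 CPM in hypoxic DMSO BV2 and 66.6 ± 0.40 CPM with panobinostat. Hs2st1, a heparan sulphate sulphotransferase, went from 60.7 ± 4.5 to 122 ± 1.9 CPM in BMDM in the same comparison, where the Lmtk3 difference was far larger.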

How the data were processed

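The authors deposited unnormalised gene counts with Ensembl identifiers in 3 tables of 55487 genes, and all 38 sample columns matched a label. Per the submitters' processing notes, the tools named were Trimmomatic 0.36, STAR 2.6, SAMtools, HTSeq 0.9.1, deepTools and, for 16 samples, Picard 2.17.1, and the build was mm10 (GRCm38). The role of each tool and the strand setting of the counting are not given in the sources used here. Libraries were stranded and poly(A)-selected, and cells were fixed in glyoxal, per the labels' protocols. Gene positions are those of a GENCODE annotation of GRCm38, matched by Ensembl identifier.

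Counts as deposited were tested with edgeR 4.0.16 (quasi-likelihood F test) in R 4.3.3, 1 fit per cell type and experiment, with TMM scaling, the default count filter (minimum count 10, minimum total 15) and Benjamini-Hochberg adjustment over all tested genes at 0.05. BV2 and GL261 were fitted together for the difference between them, and the 12 panobinostat libraries for the difference between cell types. Alternatives were DESeq2 1.42.0, its size factors, no filter, a mean of at least 5 CPM, a replicate block, only the groups compared, leaving out genes 4-fold or more above the cell's own level in its co-culture partner, and each library left out. The code was tested on simulated counts.

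The members and gene lists were chosen with earlier results of these data known. The text names the 7 members, up to 4 list genes per list and cell type that passed a panobinostat comparison with a mean of at least 1 CPM in a group, and the 2 genes most correlated with each member, of which 1 is not reported here. List genes that passed with the replicate block alone were added after their values were seen. Replicate numbers come from the titles. Same-numbered libraries deviated together in the panobinostat experiment (lowest correlation of any pair 0.154 in BV2 and 0.336 in BMDM), so the block is given beside those results. In the co-culture experiment the correlations ran from -0.0807 to 0.175 (BV2), 0.0433 to 0.369 (GL261) and -0.00185 to 0.455 (BMDM). No pair of replicates agreed within sampling noise (chi-square per degree of freedom 6.70 to 155.5 in 22 pairs). The labels call the replicates of the co-culture experiment biological and do not say so for panobinostat, so p-values there measure only the spread between these libraries, which may be technical.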

Additional observations from a re-analysis of the deposited data

Results flagged for a closer look

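Panobinostat against DMSO in hypoxia went opposite ways in the 2 cell types for 3 members, and in each cell type the panobinostat and DMSO libraries were fully separate. Of all tested genes, 64.1% in BV2 and 56.3% in BMDM were also separate, so nothing is read from that separation. For Dhrs3 in BV2 the libraries were close, at 99.7 and 82.6 CPM with DMSO and 107 and 112 CPM with panobinostat. The log2 differences were 4.68 in BV2 and -2.17 in BMDM for Slc39a8, 3.64 and -1.41 for Cd36, and 0.25 and -2.38 for Dhrs3. The difference between the cell types was not tested, because this contrast chose the genes. The BV2 value of Slc39a8 rests on 32 counts against 1.

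Hypoxia in monoculture went with higher Lmtk3 in BV2 (log2 difference 0.89) and lower Lmtk3 in BMDM (-1.62), and the oxygen groups were again separate, at 20 to 45 counts per normoxic BMDM library and 7 to 10 per hypoxic one. Hypoxia in co-culture went with lower Atp2b4 in BV2 (-1.24) and BMDM (-0.80) and higher Atp2b4 in GL261 (0.95). The differences between cell types were not tested for either gene.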

How the results depend on the processing

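No called log2 fold change of a member changed sign under the alternatives run. The untested Atp2b4 difference between cell types with panobinostat did, at -2.45 without hypoxic DMSO library 2 of BMDM. Of the counts of called genes and members, 232 values stayed within 1.5 times and 122 moved, and the cause was not tested. Values below give the reported count first. The settings with a mean of at least 5 CPM and without partner-high genes leave genes out before testing. For co-culture in BV2 and BMDM both settings left out Lmtk3, so its loss there was fixed by the setting.

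For panobinostat in BV2, 1941 genes became 4025 with the replicate block and 292 to 1342 with 1 library left out. In BMDM, 0 became 2221 with DESeq2, 66 with its size factors, 2867 with no filter, 53 with a mean of at least 5 CPM and 2044 with the block. Panobinostat against normoxia gave 6437 genes in BV2, 4156 to 6122 with 1 library left out, and 1969 in BMDM, with 3809 (DESeq2), 4449 (no filter), 4312 (block) and 0 to 35 with 1 library left out. Hypoxia with DMSO gave 4980 genes in BV2, 2920 to 4758 with 1 library left out, and 72 in BMDM, with 2260 (DESeq2), 3259 (no filter), 2127 (block), 0 (only the groups compared) and 0 to 611. The difference between cell types gave 4 genes, with 227 (DESeq2), 613 (no filter), 166 (block), 2 (only the groups compared) and 0 to 82.

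For hypoxia in the co-culture experiment, 3542 genes in BMDM alone became 6289 with only the groups compared and 1288 to 1567 with 1 library left out, and the 4 members became 1 in each of these. The 1 member in GL261 alone became 0 with DESeq2 and 0 to 1 with 1 library left out, and the 1 in GL261 co-culture became 3 (no filter), 2 (block) and 0 to 2.

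For co-culture in normoxic BV2, 2152 genes became 1245 (mean CPM), 1274 (no partner-high genes) and 451 to 1714, and 1 member became 0 (DESeq2, mean CPM, no partner-high genes), 2 (no filter, block, only the groups compared) and 0 to 1. In hypoxic BV2, 2266 became 1461 (mean CPM) and 1331 (no partner-high genes), and 1 member became 3 (no filter, block), 2 (only the groups compared) and 1 to 2. In normoxic GL261, 78 became 162 (DESeq2), 361 (no filter), 11 (mean CPM), 226 (block), 124 (only the groups compared), 13 (no partner-high genes) and 1 to 15. In hypoxic GL261, 211 became 459 (DESeq2), 737 (no filter), 654 (block), 20 (only the groups compared) and 74 to 329, and 0 members became 1 (no filter). In normoxic BMDM, 243 became 634 (DESeq2), 1062 (no filter), 70 (mean CPM), 432 (block), 21 (no partner-high genes) and 3 to 288, and 0 members became 1 (DESeq2, no filter). In hypoxic BMDM, 1053 became 1733 (DESeq2), 2141 (no filter), 313 (mean CPM), 231 (only the groups compared), 89 (no partner-high genes) and 4 to 1792, and 3 members became 5 (DESeq2, no filter, block), 1 (no partner-high genes) and 0 to 4.

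Same-numbered libraries of normoxic and hypoxic BMDM co-cultures deviated together (correlations 0.455, 0.244 and 0.407). Some other pairs of the co-culture experiment were near or below 0, and the main tests there use no pairing. With the replicate block there, members gained calls for hypoxia in BV2 alone (Atp2b4, adjusted p = 0.00273), GL261 co-culture (Dhrs3, 0.018), BMDM alone (Lmtk3, 0.0352, and Ighm, 0.0445) and BMDM co-culture (Tnfsf13b, 0.0368), and for co-culture in BV2 (Cd36, 0.0371 in normoxia and 0.0489 in hypoxia, and Atp2b4, 0.00409 in hypoxia) and hypoxic BMDM (Cd36, 0.0235, and Ighm, 0.00497). Without 1 hypoxic library Dhrs3 passed in GL261 co-culture (library 1, 0.00129) and Tnfsf13b in BMDM co-culture (library 3, 0.0314). With 2 libraries per group, leaving 1 out assumes that the lone library varies like the other groups. Slc39a8 in BV2, Ighm in BMDM and Lmtk3 in BV2 and BMDM rest on few counts, which limits their fold changes.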
